A study of Homo sapiens with 10 samples.

Results

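The results concern 34 genes of autophagy and the lysosome out of the 19893 genes in the count matrix. They were taken by name, as a list of cargo receptors, genes that build the autophagosome, the transcription factor TFEB, and proteins of the lysosomal membrane, the lysosomal lumen and the proton pump. All 34 were found in the matrix and passed the filter on low counts.

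Autophagy encloses cytoplasmic material in a double membrane and delivers it to the lysosome, an acidic compartment in which hydrolases break it down. Receptors such as SQSTM1 (also called p62) bind ubiquitin-tagged cargo on one side and lipid-linked proteins of the ATG8 family on the other, so that cargo is drawn into the forming vesicle. The V-ATPase pumps protons into the lysosome, and TFEB drives transcription of many lysosomal genes when it enters the nucleus.

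Single-cell RNA-seq was made of Kuramochi cells, an established ovarian cancer line labelled as epithelial and BRCA2-mutant, exposed to olaparib, a drug that blocks PARP enzymes, which act in DNA repair. The 5 conditions were untreated control cells, persister cells collected after 9 days in 10 uM or 320 uM olaparib, and adapted (olaparib-resistant) populations at 10 uM or 320 uM. By the labels, all conditions share the line and its genotype. The time that the adapted populations spent in the drug, and whether any of them is a clone, is not given in the sources used here. Cells of all conditions were tagged with hashing antibodies and sequenced together in 2 pools, so that each condition has 2 sums of counts, 1 from each pool.

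The 10 sums held 263 to 2435 cells and 3532281 to 23189583 UMIs, fewest in 10 uM persister cells. Levels are given in CPM, the usual depth-scaled count (here UMIs divided by the TMM-scaled library size), first for pool 1 and then for pool 2. Whether each pool was grown apart is not given, so the p-values reflect how far the pools differ, and that spread may be technical. The pools shared 13 cell barcodes.

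Treated cells, and the adapted populations most, differed from control in marker genes, which touches every comparison that holds them. CDKN2A, CDKN2B and MTAP, neighbours in chromosome band 9p21, summed to 905 and 951 CPM in control cells but to 24.6 and 26.9 CPM in 320 uM adapted cells and to 495 and 506 CPM in 320 uM persister cells. In 10 uM adapted cells they summed to 263 and 272 CPM, and 41.7% and 42.9% of those cells had 0 UMIs of the 3 genes, against 0.821% and 0.464% of control cells. The 12 serous epithelial markers summed to 4663 and 4821 CPM in control and to 1368 and 1240.0 CPM in 320 uM adapted cells, where SOX17 was at 4.32 and 7.03 CPM against 289 and 360.0 CPM in control. These markers summed to 3663 and 2986 CPM in 10 uM persister, 2774 and 2739 CPM in 320 uM persister and 2629 and 2568 CPM in 10 uM adapted cells. Most of the control sum was KRT8 (1242 and 1285 CPM) and KRT18 (2750 and 2809 CPM), so the sum mainly follows these keratins. Single markers differed: in 320 uM persister cells SOX17 was lower than control (182 and 223 CPM). There PAX8 overlapped control (167 and 160.2 against 173 and 159 CPM), and CLDN3 was higher (123 and 121 against 46.2 and 47.0 CPM). The 8 mesenchymal markers summed to 186 and 183 CPM in 10 uM adapted cells, with COL1A1 at 93.6 and 90.8 CPM, against 2.21 to 12.9 CPM in the other sums. The part of these differences in the results was not tested. Some results for 10 uM adapted cells are also given for their cells with and without 9p21 UMIs. The others need not hold in both classes. Among the members, 15 calls ended with the sign kept in cells with 9p21 UMIs and 13 in cells without. A further 6 and 13 results turned sign, counting only those that passed with all cells or with the class. Turns that passed with neither are not counted.

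Promoter stretches are shown for members whose promoters held E-box letters of the kind that TFEB and its relatives bind. RefSeq promoters (GRCh38.p14, 250 bases before to 50 bases after a gene's start) matched 27 of the 34 members, and both strands were searched. CACGTG was in 7.26% of all 35116 promoters and in those of 6 members. TCACGTGA, which contains it, was in 0.980% of all promoters and in those of 5 members. The CLEAR element of 10 bases, which is TCACGTGA between a G and a C, was in 0.353% of all promoters and in those of 2 members. Capitals mark the longest match at each place.
GAA, chr17:80101482-80101578, plus strand: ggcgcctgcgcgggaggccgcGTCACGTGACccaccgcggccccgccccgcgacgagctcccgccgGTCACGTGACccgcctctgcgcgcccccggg
MCOLN1, chr19:7522560-7522638, plus strand: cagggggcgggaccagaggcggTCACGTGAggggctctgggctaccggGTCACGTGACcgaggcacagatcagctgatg
LAMP1, chr13:113297188-113297263, plus strand: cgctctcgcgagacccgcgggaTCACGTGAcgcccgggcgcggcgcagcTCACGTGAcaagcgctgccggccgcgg
NEU1, chr6:31862920-31862969, minus strand: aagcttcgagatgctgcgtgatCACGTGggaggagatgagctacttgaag

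GAA held the CLEAR letters at 2 places and MCOLN1 at 1, beside a shorter match. LAMP1 held TCACGTGA at 2 places, and NEU1 held CACGTG alone. ATG3 and ATP6V0D1 also held TCACGTGA, in stretches not printed here. TGACTCAGC, a motif of the antioxidant-response type, was in 0.561% of all promoters and in 0 of the members' promoters. The looser TGANNNNGC was in 41.8% of all promoters, in 42.9% of the members' promoters and in those of 15 members. These matches describe letters in a window and nothing more. The 4 genes shown did not move alike against control. NEU1 rose most in persister cells, and GAA rose in 3 of the 4 treated conditions. LAMP1 rose in persister cells alone, and MCOLN1 rose in 0 of the 4 conditions. ATG3 and ATP6V0D1, whose stretches are not printed, rose in both persister populations and in neither adapted one.

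Against control, more members were higher than lower in each treated condition. Tests were edgeR quasi-likelihood tests over the 13330 genes that passed the filter, and a gene was called at a Benjamini-Hochberg adjusted p under 0.05. In 10 uM persister cells 22 members were higher, beside 27.3% of all genes tested, and 2 were lower (GABARAPL2 and GUSB), beside 29.3% of all genes. In 320 uM persister cells 27 members were higher beside 26.3% of all genes, and 0 were lower beside 28.3%. That count of lower members was 0 also at an unadjusted p under 0.05 and with DESeq2. In 10 uM adapted cells 14 members were higher beside 33.7% of all genes, and 9 were lower beside 33.4%. In 320 uM adapted cells 23 members were higher beside 37.6% of all genes, and 6 were lower beside 36.9%. The members' counts in 10 uM adapted cells were thus near those shares.

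The median log2 change over the 34 members was 0.45 in 10 uM persister, 0.52 in 320 uM persister, 0.11 in 10 uM adapted and 0.46 in 320 uM adapted cells. Over all genes tested it was -0.026, -0.013, 0.0048 and 0.0091. These 4 comparisons share the control sums. Scaling by library totals alone moved the count most in 320 uM adapted cells, where 16 members were then higher and 10 lower, while over all genes 3726 were higher and 6233 lower in place of 5012 and 4918. That scaling shifted the median of all genes there to -0.22. In 10 uM persister cells it shifted that median to 0.092 and gave 26 higher members and 1 lower. Over all genes 4346 were then higher there and 3212 lower, in place of 3638 and 3909. By condition, the highest mean level fell in 10 uM persister cells for 11 members, in 320 uM adapted cells for 10, in 320 uM persister cells for 9, in 10 uM adapted cells for 4 and in control cells for 0. The lowest mean level was in control cells for 16 members and in 10 uM adapted cells for 10. The ratio of the highest to the lowest condition ran from 1.37 to 7.01, and 17 members exceeded 2-fold.

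**Figure D1:**
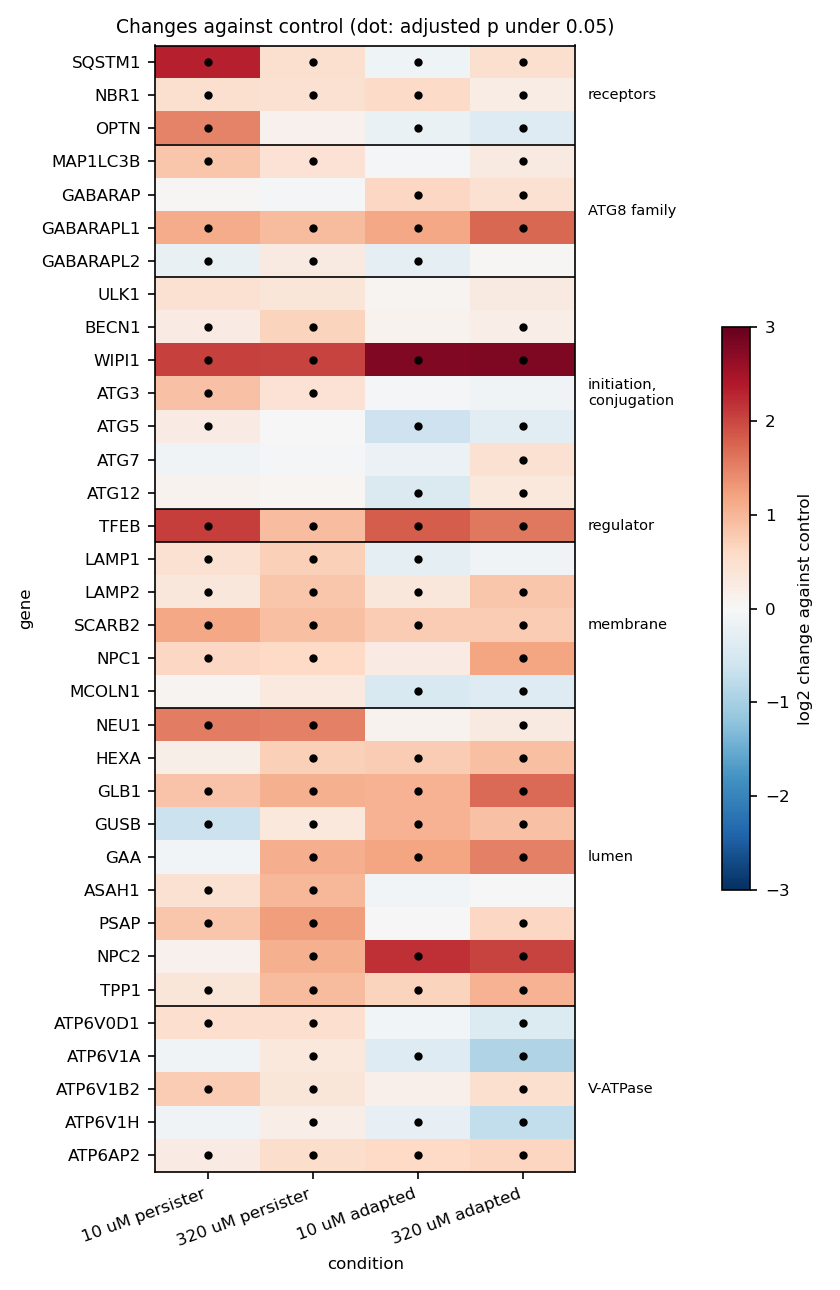
Colour gives the log2 change of each member (rows, grouped by role) against control in the 4 treated conditions (columns), and a dot marks an adjusted p under 0.05 in the edgeR test. SQSTM1 stands out in 10 uM persister cells, NEU1 in both persister populations, NPC2 in both adapted ones, and WIPI1 in all 4.

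Among the 3 cargo receptors the largest differences were in 10 uM persister cells, where all 3 were higher than in control. SQSTM1 (chr5:179806398-179838078, GENCODE 29 on GRCh38), a receptor for ubiquitin-tagged protein aggregates, was at 275 and 282 CPM in control, 1445 and 1374 CPM in 10 uM persister, 382 and 393 CPM in 320 uM persister, 248 and 259 CPM in 10 uM adapted and 384 and 396 CPM in 320 uM adapted cells. The 10 uM persister sums lay far above all others, and the sums of the 320 uM conditions overlapped each other. Against control it was 5.06-fold higher in 10 uM persister cells (log2 2.34, SE 0.0443, adjusted p = 3.03e-27), 1.39-fold higher in 320 uM persister cells (adjusted p = 1.45e-10) and 1.40-fold higher in 320 uM adapted cells (adjusted p = 2.16e-11). In 10 uM adapted cells it fell by 0.13 on the log2 scale (adjusted p = 0.00727), a call that was lost without pool 2 of control (adjusted p = 0.0680) or pool 1 of those adapted cells (adjusted p = 0.0949), and with their cells that had 9p21 UMIs (log2 -0.11, adjusted p = 0.116). The 3′ end of SQSTM1 lies over MRNIP on the other strand, and the use of strand in the counting is not given in the sources used here.

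OPTN, a receptor for damaged mitochondria and for bacteria, was at 84.2 and 80.1 CPM in control, 226 and 238 CPM in 10 uM persister, 92.3 and 87.8 CPM in 320 uM persister, 71.5 and 71.2 CPM in 10 uM adapted and 64.3 and 60.9 CPM in 320 uM adapted cells. Its 10 uM persister sums were more than 2-fold above every other sum, and both adapted populations lay below control. It rose 2.82-fold in 10 uM persister cells (log2 1.5, SE 0.0567, adjusted p = 8.84e-20). In 320 uM persister cells its log2 change of 0.13 did not pass (adjusted p = 0.0514), whereas with the pool as a block it did (adjusted p = 0.0201). It fell by 0.39 in 320 uM adapted cells (adjusted p = 2.64e-07) and by 0.20 in 10 uM adapted cells (adjusted p = 0.00186). In the latter the sign differed by cells: the log2 change was -0.42 in cells with 9p21 UMIs and 0.12 in cells without (adjusted p = 0.0973).

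NBR1, a receptor that acts beside SQSTM1, was lowest in control. Its levels were 28.9 and 27.3 CPM in control, 40.7 and 38.2 CPM in 10 uM persister, 38.6 and 38.4 CPM in 320 uM persister, 40.9 and 42.2 CPM in 10 uM adapted and 30.3 and 35.4 CPM in 320 uM adapted cells. It rose in all 4 treated conditions, by 0.49, 0.46, 0.56 and 0.23 on the log2 scale. The last of these was 0.0011 with library totals alone and lost its call without pool 2 of control (adjusted p = 0.0981) or of those adapted cells (log2 0.11, adjusted p = 0.288). In 10 uM adapted cells the rise was 0.85 in cells with 9p21 UMIs and 0.15 in cells without (adjusted p = 0.222).

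The higher SQSTM1 level in 10 uM persister cells was seen across most cells. Each cell was thinned to 5000 UMIs to compare cells at 1 depth, which left out 36 to 346 cells a sum. Control cells then had 1.42 and 1.43 SQSTM1 UMIs on average, with a median of 1. The 10 uM persister cells had 7.98 and 7.81 UMIs on average, with medians of 5 and 6, and 3 cells in 4 had at least 3 UMIs, while 3 in 4 control cells had at most 2. Cells also varied widely within that condition, from 1 UMI at the 10th percentile to 17.1 and 17 at the 90th. In 320 uM persister cells the means were 2.14 and 2.11 UMIs and the medians 2. For OPTN the means were 0.424 and 0.412 UMIs in control and 1.29 and 1.36 UMIs in 10 uM persister cells.

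**Figure D2:**
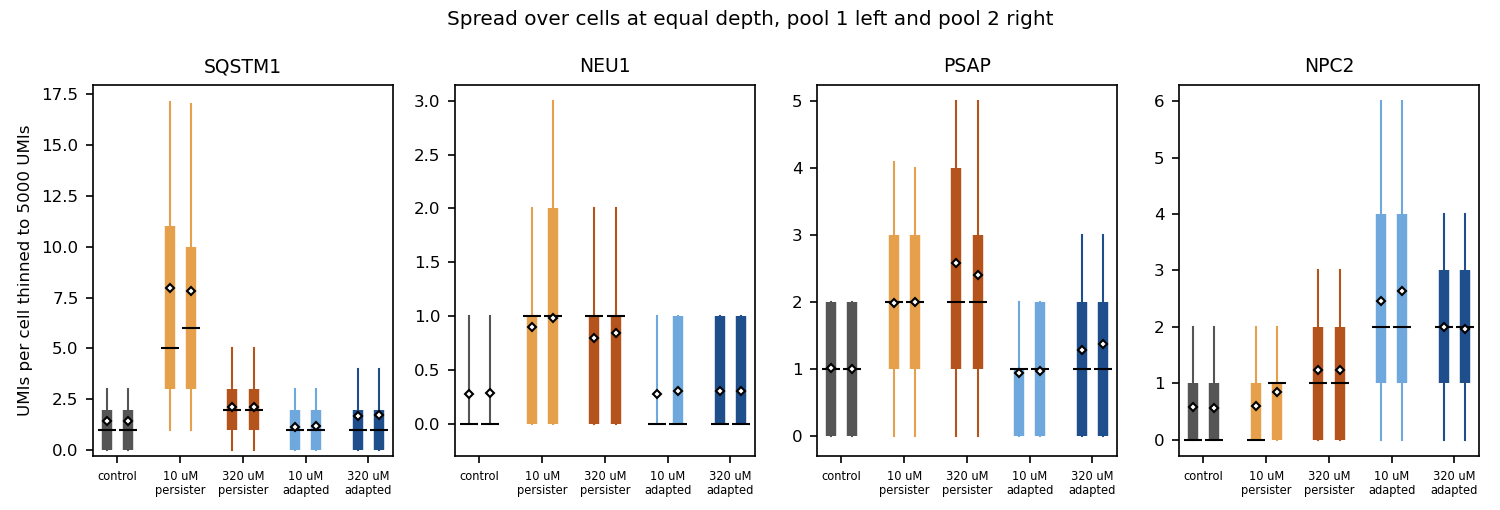
UMIs per cell of SQSTM1, NEU1, PSAP and NPC2 after thinning to 5000 UMIs a cell, for each condition and pool: thin lines span the 10th to the 90th percentile over cells, thick bars the 25th to the 75th, black bars are medians and diamonds are means. SQSTM1 in 10 uM persister cells reaches 17 UMIs at the 90th percentile against 3 in control, and NPC2 means are 2.46 and 2.63 in 10 uM adapted cells against 0.571 and 0.568 in control.

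The 4 genes of the ATG8 family, whose proteins are attached to lipid on the growing membrane, did not change together. MAP1LC3B, which encodes the common autophagosome marker LC3B, was at 116 and 117 CPM in control, 203 and 214 CPM in 10 uM persister, 159.9 and 154 CPM in 320 uM persister, 118 and 109 CPM in 10 uM adapted and 139.9 and 142 CPM in 320 uM adapted cells. Persister sums lay above all others. It rose 1.79-fold in 10 uM persister cells (adjusted p = 4.63e-14) and 1.34-fold in 320 uM persister cells (adjusted p = 4.14e-08). In 320 uM adapted cells it rose by 0.27 on the log2 scale (adjusted p = 1.51e-05), and with library totals alone the change was 0.047 (adjusted p = 0.379). The log2 change of -0.04 in 10 uM adapted cells did not pass (adjusted p = 0.499), but it was -0.24 in cells with 9p21 UMIs and 0.26 in cells without, and both of these passed.

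GABARAPL1, a family member that FOXO factors can induce, was at 7.30 and 7.04 CPM in control, 15.5 and 15.4 CPM in 10 uM persister, 14.8 and 13.0 CPM in 320 uM persister, 15.5 and 16.4 CPM in 10 uM adapted and 22.1 and 24.9 CPM in 320 uM adapted cells. Every treated sum lay above control, and 320 uM adapted cells were highest. The log2 changes were 1.1, 0.96, 1.15 and 1.71, and all passed. GABARAPL2, of the same subfamily, was at 179 and 181 CPM in control, 157 and 151 CPM in 10 uM persister, 223 and 210.0 CPM in 320 uM persister, 145 and 147 CPM in 10 uM adapted and 181 and 189 CPM in 320 uM adapted cells. It rose in 320 uM persister cells (log2 0.26, adjusted p = 2.93e-05) and fell by 0.30 in 10 uM adapted cells (adjusted p = 1.83e-06). Its fall by 0.23 in 10 uM persister cells (adjusted p = 0.000488) was -0.11 with library totals alone (adjusted p = 0.0665). In 320 uM adapted cells the change of 0.038 did not pass (adjusted p = 0.469), and library totals alone turned it to -0.19.

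GABARAP itself was counted at 2.88 to 6.25 CPM in all sums, so its changes are imprecise. It was called higher in 10 uM adapted (log2 0.62, adjusted p = 0.00682) and 320 uM adapted cells (log2 0.46, adjusted p = 0.0392). DESeq2 gave adjusted p = 0.0901 and 0.221. The first call was lost without pool 1 of control (adjusted p = 0.0563) or pool 2 of those adapted cells (log2 0.21, adjusted p = 0.459), and with their cells without 9p21 UMIs (log2 0.46, adjusted p = 0.137). The second was lost without either pool of control (adjusted p = 0.178 and 0.0520) or of those adapted cells (adjusted p = 0.0520 and 0.214). MAP1LC3B and GABARAPL1 have near-identical copies elsewhere in the genome, and how reads shared with these were counted is not given, so their levels are uncertain to that extent.

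Of the 7 genes of vesicle initiation and ATG8 conjugation, WIPI1 changed most. WIPI1 (chr17:68420948-68457513) binds phosphoinositide lipids where the membrane forms. It was at 4.07 and 4.37 CPM in control, 17 and 18.3 CPM in 10 uM persister, 20.3 and 14.3 CPM in 320 uM persister, 29.6 and 28.2 CPM in 10 uM adapted and 30.9 and 28.2 CPM in 320 uM adapted cells. Control lay below every treated sum, and the adapted sums lay above the persister sums. The changes were 4.18-fold, 4.10-fold, 6.83-fold and 6.98-fold (log2 2.06, 2.03, 2.77 and 2.80, SE 0.180, 0.146, 0.120 and 0.119), with adjusted p of at most 4.47e-11 in the edgeR test. Its 3′ end lies over ARSG on the other strand.

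The conjugation genes went different ways. ATG3, the enzyme that transfers ATG8 proteins to lipid, was at 73.8 and 75.5 CPM in control, 136 and 139.8 CPM in 10 uM persister, 104 and 99.4 CPM in 320 uM persister, 72.6 and 72.0 CPM in 10 uM adapted and 71.2 and 66.8 CPM in 320 uM adapted cells. It rose in persister cells, by 0.89 at 10 uM and 0.44 at 320 uM on the log2 scale. Neither adapted change passed, though with the pool as a block the change of -0.12 in 320 uM adapted cells did (adjusted p = 0.0187). For 10 uM adapted cells ATG3 was 0.17 in cells with 9p21 UMIs and -0.31 in those without, on the log2 scale against control, and both passed.

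ATG5, which forms a complex with ATG12 that helps ATG8 lipidation, was at 66.8 and 64.3 CPM in control, 79.9 and 74.7 CPM in 10 uM persister, 67.5 and 64.8 CPM in 320 uM persister, 43.2 and 42.4 CPM in 10 uM adapted and 51.4 and 52.6 CPM in 320 uM adapted cells. It fell in both adapted populations, by 0.61 at 10 uM (adjusted p = 4.54e-10) and 0.33 at 320 uM (adjusted p = 1.01e-05). Its rise by 0.24 in 10 uM persister cells lost its call without pool 1 of those cells (adjusted p = 0.0576). ATG12 fell by 0.43 in 10 uM adapted cells (adjusted p = 8.61e-07) and rose by 0.31 in 320 uM adapted cells (adjusted p = 3.84e-05), or by 0.083 with library totals alone (adjusted p = 0.205). ATG7, which activates ATG8 proteins, ranged from 6.45 to 10.7 CPM and was called in 320 uM adapted cells (log2 0.46, adjusted p = 0.000989), a call lost with library totals alone (adjusted p = 0.0788). Its 3′ end lies over VGLL4 on the other strand.

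BECN1, a subunit of the lipid kinase that starts the vesicle, was at 31.5 and 30.5 CPM in control, 42.6 and 31.2 CPM in 10 uM persister, 50.3 and 48.3 CPM in 320 uM persister, 33.0 and 34.2 CPM in 10 uM adapted and 33.9 and 37.6 CPM in 320 uM adapted cells. The 320 uM persister sums were highest, 1.59-fold above control (adjusted p = 8.10e-08). In 10 uM persister cells the sums overlapped control, and the call (log2 0.24, adjusted p = 0.0499) was lost in 7 of the 10 fits that left out 1 sum, with adjusted p up to 0.926 and a log2 change of 0.018 without pool 1 of those persister cells. In 320 uM adapted cells the rise of 0.21 (adjusted p = 0.0209) was -0.019 with library totals alone, and it lost its call without pool 2 of control (adjusted p = 0.122) or of those adapted cells (log2 0.13, adjusted p = 0.249). Its 3′ end lies over CNTD1 on the other strand. ULK1, the kinase at the head of the pathway, was at 5.81 to 8.51 CPM. None of its 4 changes against control passed, but with the pool as a block that in 320 uM persister cells did (log2 0.35, adjusted p = 0.0471).

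TFEB, the regulator of lysosomal genes, was rarely counted but was higher in every treated sum than in either control sum. It was at 1.24 and 1.44 CPM in control, 5.93 and 5.53 CPM in 10 uM persister, 2.18 and 2.91 CPM in 320 uM persister, 5.35 and 4.13 CPM in 10 uM adapted and 3.63 and 4.36 CPM in 320 uM adapted cells. The changes were 4.24-fold in 10 uM persister, 1.89-fold in 320 uM persister, 3.51-fold in 10 uM adapted and 2.97-fold in 320 uM adapted cells, with adjusted p of 7.71e-07, 0.00961, 2.49e-08 and 3.38e-07 in the edgeR test. The second was lost without pool 2 of 320 uM persister cells (log2 0.71, adjusted p = 0.154). A transcript level says nothing of where the TFEB protein was in the cell.

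Of the 5 lysosomal membrane genes, 4 were higher in each persister population and 3 in 320 uM adapted cells. SCARB2, a lysosomal membrane protein also known as LIMP-2, was at 28.2 and 27.6 CPM in control, 66.0 and 57.9 CPM in 10 uM persister, 52.6 and 51.3 CPM in 320 uM persister, 47.6 and 46.3 CPM in 10 uM adapted and 46.1 and 48.0 CPM in 320 uM adapted cells. Control lay below every treated sum, and 10 uM persister cells were highest at 2.22-fold (adjusted p = 4.72e-13). The other changes were 0.90, 0.75 and 0.76 on the log2 scale, and all passed. LAMP2, a membrane glycoprotein with a part in fusion and in chaperone-mediated autophagy, was at 42.3 and 41.6 CPM in control, 58.3 and 48.5 CPM in 10 uM persister, 75.8 and 73.6 CPM in 320 uM persister, 51.8 and 54.5 CPM in 10 uM adapted and 73.9 and 75.1 CPM in 320 uM adapted cells. The 320 uM sums, persister and adapted, were highest and overlapped, both 1.78-fold above control (adjusted p = 1.12e-11 and 8.81e-13). Its rise by 0.35 in 10 uM persister cells lost its call without pool 1 of them (log2 0.22, adjusted p = 0.0848). In 10 uM adapted cells the rise of 0.34 was 0.16 in cells with 9p21 UMIs (adjusted p = 0.0670) and 0.66 in cells without.

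LAMP1, the sister glycoprotein, was at 24.0 and 21.9 CPM in control, 32.2 and 31.2 CPM in 10 uM persister, 35.9 and 39.0 CPM in 320 uM persister, 18.3 and 19.3 CPM in 10 uM adapted and 21.2 and 21.7 CPM in 320 uM adapted cells. It rose in persister cells, by 0.47 at 10 uM (adjusted p = 0.000315) and 0.71 at 320 uM (adjusted p = 2.52e-08). It fell by 0.29 in 10 uM adapted cells (adjusted p = 0.00353), a call lost without pool 1 of control (adjusted p = 0.0664), in DESeq2 (adjusted p = 0.0569) and with cells that had 9p21 UMIs (log2 -0.19, adjusted p = 0.103). NPC1, the transporter that passes cholesterol out of the lysosome, was at 3.78 to 9.40 CPM and highest in 320 uM adapted cells, 2.29-fold above control (adjusted p = 4.13e-08). Its persister calls (log2 0.63 and 0.60) were each lost without pool 2 of control (adjusted p = 0.107 and 0.0651). They were also lost without pool 1 of 10 uM persister cells (log2 0.46, adjusted p = 0.276) and without pool 2 of 320 uM persister cells (log2 0.30, adjusted p = 0.339).

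MCOLN1, a calcium channel of the lysosomal membrane, was at 9.99 and 7.59 CPM in control, 9.54 and 9.13 CPM in 10 uM persister, 11.6 and 9.78 CPM in 320 uM persister, 6.86 and 5.93 CPM in 10 uM adapted and 6.83 and 6.68 CPM in 320 uM adapted cells. Neither persister change passed. It was called lower in 10 uM adapted (log2 -0.46, adjusted p = 0.00620) and 320 uM adapted cells (log2 -0.38, adjusted p = 0.0161), and DESeq2 made neither call (adjusted p = 0.0949 and 0.141). Without pool 1 of control the changes were -0.25 and -0.17 (adjusted p = 0.205 and 0.370). The first was also lost without pool 2 of those adapted cells (adjusted p = 0.0907), and the second without either pool of its own (adjusted p = 0.0513 and 0.0833). In 10 uM adapted cells with 9p21 UMIs the change was -0.021 (adjusted p = 0.925), and in those without it was -1.03 (adjusted p = 0.000308). The 3′ end of MCOLN1 lies over PNPLA6 on the same strand.

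All 9 genes of the lysosomal lumen were higher than control in 320 uM persister cells, 8 in 320 uM adapted cells, 6 in 10 uM adapted cells and 5 in 10 uM persister cells, where GUSB was lower. NEU1 (chr6:31857659-31862906), a sialidase, was highest in persister cells. It was at 57.3 and 56.8 CPM in control, 162 and 168 CPM in 10 uM persister, 166 and 161 CPM in 320 uM persister, 59.9 and 62.3 CPM in 10 uM adapted and 70.5 and 68.1 CPM in 320 uM adapted cells. The persister sums at the 2 doses overlapped each other and lay above all other sums. It rose 2.89-fold in 10 uM persister cells (log2 1.53, SE 0.0585, adjusted p = 1.08e-19) and 2.86-fold in 320 uM persister cells (log2 1.52, SE 0.0541, adjusted p = 7.34e-20). In 320 uM adapted cells it rose by 0.28 (adjusted p = 3.89e-05), or by 0.053 with library totals alone (adjusted p = 0.368). Its log2 change of 0.10 in 10 uM adapted cells did not pass (adjusted p = 0.113), and was 0.20 in cells with 9p21 UMIs and -0.19 in cells without.

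GUSB, a glucuronidase often used as a reference gene, was higher in adapted than in persister cells at both doses. It was at 33.3 and 33.5 CPM in control, 23.5 and 19.2 CPM in 10 uM persister, 41.6 and 41.2 CPM in 320 uM persister, 71.0 and 67.6 CPM in 10 uM adapted and 59.7 and 63.4 CPM in 320 uM adapted cells. The 10 uM persister sums were the lowest and the adapted sums the highest. It fell by 0.65 in 10 uM persister cells (adjusted p = 4.21e-06) and rose by 0.31, 1.05 and 0.88 in the other conditions, all past the threshold. Among cells off a deposited list the fall was not seen, with 41.7 and 36.2 CPM in 10 uM persister and 35.8 and 37.0 CPM in control cells. Pseudogenes of GUSB and SQSTM1 exist, and how reads shared with them were counted is not given.

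GAA, which breaks down lysosomal glycogen, was at 11.3 and 10.0 CPM in control, 10.1 and 10.1 CPM in 10 uM persister, 24.3 and 21.3 CPM in 320 uM persister, 23.4 and 24.6 CPM in 10 uM adapted and 29.7 and 30.5 CPM in 320 uM adapted cells. The 10 uM persister sums overlapped control, and the other treated sums were all at least 21.3 CPM. The rises were 2.14-fold in 320 uM persister, 2.26-fold in 10 uM adapted and 2.83-fold in 320 uM adapted cells. HEXA, a subunit of beta-hexosaminidase, rose in the same 3 conditions (log2 0.72, 0.77 and 0.89), and its change in 10 uM persister cells did not pass (log2 0.17, adjusted p = 0.225). GLB1, the lysosomal beta-galactosidase used as a stain for senescence, was at 7.87 and 7.47 CPM in control, 14.4 and 13.2 CPM in 10 uM persister, 15.5 and 16.9 CPM in 320 uM persister, 17 and 14.4 CPM in 10 uM adapted and 25.6 and 24.5 CPM in 320 uM adapted cells. It rose in all 4, from 1.80-fold in 10 uM persister cells to 3.27-fold in 320 uM adapted cells, where both sums were the highest.

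PSAP (chr10:71816298-71851375), the precursor of the saposins that activate sphingolipid hydrolases, was at 203 and 197 CPM in control, 364 and 349 CPM in 10 uM persister, 484 and 465 CPM in 320 uM persister, 198 and 198 CPM in 10 uM adapted and 303 and 308 CPM in 320 uM adapted cells. Persister sums were highest, control and 10 uM adapted cells overlapped, and 320 uM adapted cells lay between. The rises were 1.78-fold (adjusted p = 1.27e-15), 2.37-fold (adjusted p = 6.46e-20) and 1.53-fold (adjusted p = 2.04e-13) in 10 uM persister, 320 uM persister and 320 uM adapted cells. ASAH1, the acid ceramidase, rose in persister cells alone. It was at 34.2 and 33.2 CPM in control, 42.0 and 50.5 CPM in 10 uM persister, 67.6 and 65.9 CPM in 320 uM persister, 32.7 and 31.1 CPM in 10 uM adapted and 33.0 and 35.2 CPM in 320 uM adapted cells. The log2 rises were 0.46 at 10 uM and 0.99 at 320 uM, and in 320 uM adapted cells the change of 0.018 (adjusted p = 0.825) was -0.21 with library totals alone. TPP1, a peptidase, rose by 0.94, 0.66 and 1.04 in 320 uM persister, 10 uM adapted and 320 uM adapted cells. Its call in 10 uM persister cells (log2 0.36, adjusted p = 0.0369) was lost without pool 2 of control (adjusted p = 0.123) and without either pool of those persister cells (adjusted p = 0.0564 and 0.291).

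NPC2 (chr14:74476192-74494177), the soluble protein that hands cholesterol to NPC1, had the largest rise of the lumen genes. It was at 109.8 and 109 CPM in control, 110.1 and 129 CPM in 10 uM persister, 235 and 226 CPM in 320 uM persister, 501 and 494 CPM in 10 uM adapted and 460.2 and 436 CPM in 320 uM adapted cells. Both adapted populations lay above 320 uM persister cells, and these above control and 10 uM persister cells. The rise was 4.56-fold in 10 uM adapted cells (log2 2.19, SE 0.0507, adjusted p = 2.21e-24), 4.10-fold in 320 uM adapted cells (log2 2.04, SE 0.0505, adjusted p = 2.18e-24) and 2.11-fold in 320 uM persister cells (adjusted p = 9.19e-17). In 10 uM persister cells the log2 change of 0.13 did not pass (adjusted p = 0.0633), and in the cells of a deposited list it was -0.17 (adjusted p = 0.0336).

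The 5 genes of the V-ATPase and its partner were all higher in 320 uM persister cells, whereas in 320 uM adapted cells 2 were higher and 3 lower. ATP6V1A, the catalytic subunit, was at 60.6 and 59.2 CPM in control, 55.2 and 56.9 CPM in 10 uM persister, 76.4 and 72.5 CPM in 320 uM persister, 45.8 and 46.2 CPM in 10 uM adapted and 31.6 and 32.7 CPM in 320 uM adapted cells. The 320 uM persister sums were the highest and the 320 uM adapted sums the lowest, and no 2 conditions overlapped. Against control it rose by 0.31 in 320 uM persister cells (adjusted p = 8.59e-05) and fell by 0.90 in 320 uM adapted cells (adjusted p = 1.56e-13). It fell by 0.38 in 10 uM adapted cells (adjusted p = 3.11e-06), where the change was 0.0081 in cells with 9p21 UMIs (adjusted p = 0.926) and -1.1 in cells without.

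ATP6V1H, a regulatory subunit of the same V1 sector, was at 73.9 and 71.7 CPM in control, 67.6 and 67.8 CPM in 10 uM persister, 86.7 and 79.5 CPM in 320 uM persister, 63.5 and 60.0 CPM in 10 uM adapted and 46.1 and 40.9 CPM in 320 uM adapted cells. It fell by 0.74 in 320 uM adapted cells (adjusted p = 1.57e-11) and by 0.24 in 10 uM adapted cells (adjusted p = 0.00143), where the call was lost in cells with 9p21 UMIs (log2 -0.14, adjusted p = 0.0925). Its rise by 0.19 in 320 uM persister cells was lost without pool 2 of control (adjusted p = 0.101) or pool 1 of those persister cells (adjusted p = 0.189). ATP6V0D1, in the V0 sector, was at 47.2 and 47.0 CPM in control, 71.2 and 63.7 CPM in 10 uM persister, 70.9 and 63.4 CPM in 320 uM persister, 44.1 and 44.3 CPM in 10 uM adapted and 35.1 and 35.9 CPM in 320 uM adapted cells. It rose 1.43-fold in both persister populations (adjusted p = 1.62e-06 and 2.29e-07) and fell by 0.41 in 320 uM adapted cells (adjusted p = 3.89e-06).

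ATP6V1B2, the other part of the catalytic ring, was at 10.2 and 9.25 CPM in control, 15.5 and 17.3 CPM in 10 uM persister, 12.2 and 12.9 CPM in 320 uM persister, 11.0 and 10.5 CPM in 10 uM adapted and 13.8 and 13.1 CPM in 320 uM adapted cells. It rose by 0.76 in 10 uM persister cells (adjusted p = 4.98e-05) and by 0.47 in 320 uM adapted cells (adjusted p = 0.000214). Its rise by 0.37 in 320 uM persister cells was lost without pool 2 of control (adjusted p = 0.0973) or of those persister cells (adjusted p = 0.0891). ATP6AP2, an accessory protein also known as the prorenin receptor, was at 92.2 and 86.7 CPM in control, 114 and 100 CPM in 10 uM persister, 131 and 127 CPM in 320 uM persister, 140.1 and 130.3 CPM in 10 uM adapted and 145 and 137 CPM in 320 uM adapted cells. All treated sums lay above control, and the log2 rises were 0.25, 0.53, 0.60 and 0.65. The first was lost without pool 1 of 10 uM persister cells (adjusted p = 0.0775).

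**Figure D3:**
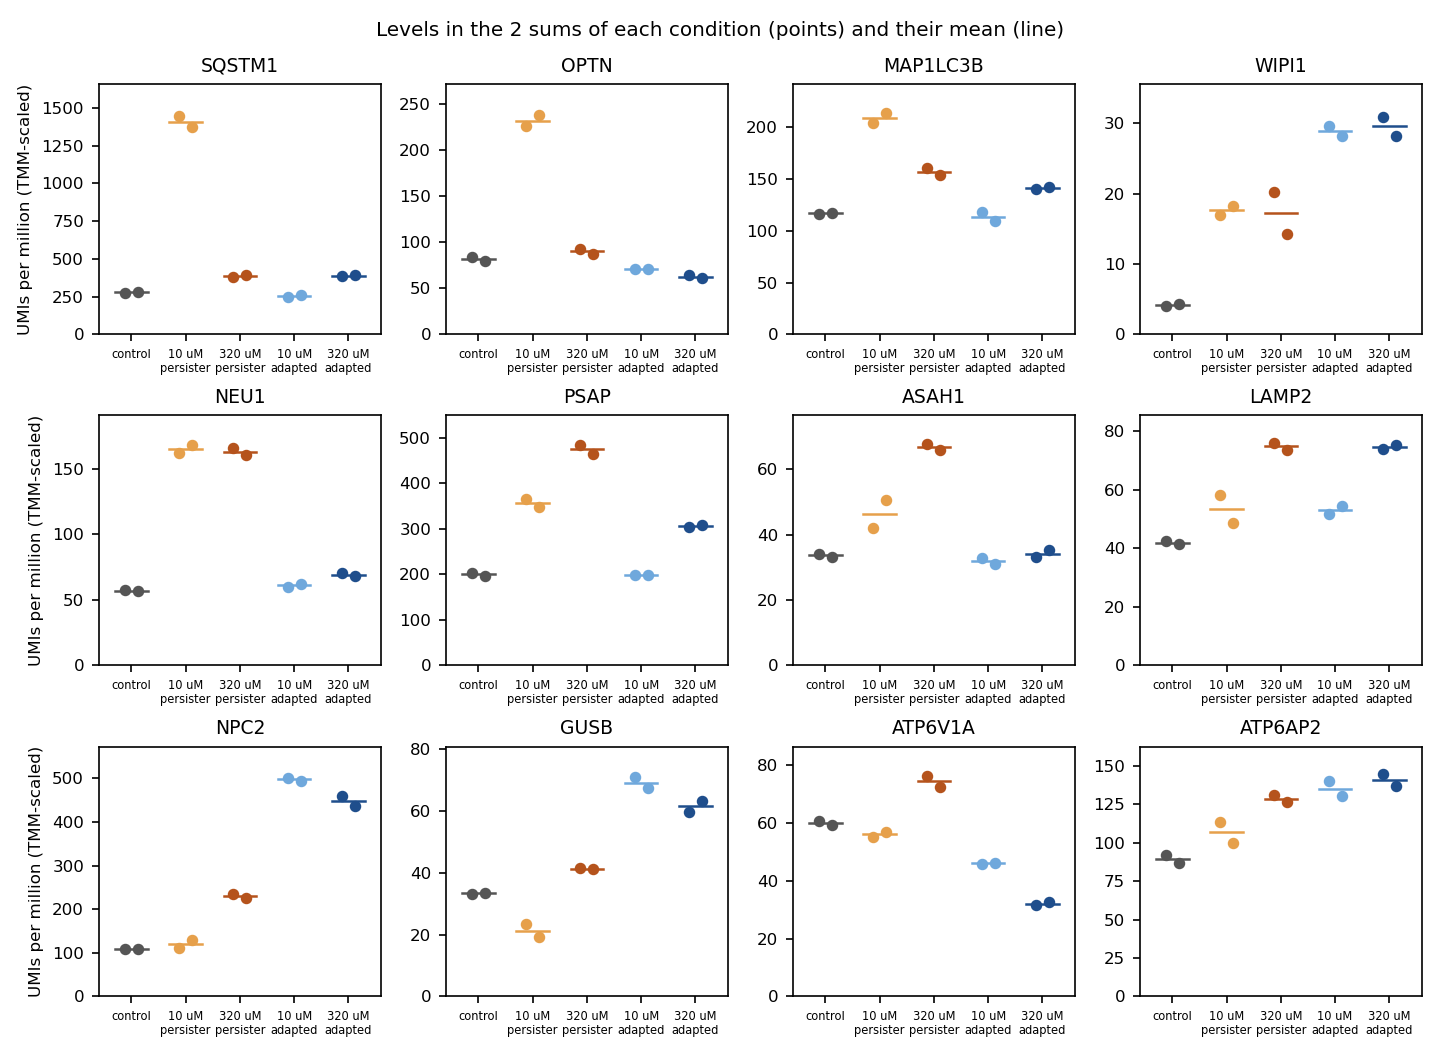
Levels in CPM of 12 members in each condition; points are the sums of the 2 pools and lines mark the condition means, with each panel on its own axis from 0. SQSTM1 and OPTN peak in 10 uM persister cells, NEU1 is high in both persister populations, NPC2 and WIPI1 are high in both adapted ones, and ATP6V1A is lowest in 320 uM adapted cells at 31.6 and 32.7 CPM.

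Adapted cells were next set against persister cells at the same dose, which uses no control mean. The control sums still enter the filter, the scaling and the estimate of the spread, which all conditions share. At 10 uM 6 members were higher in adapted cells beside 31.4% of all genes tested, and 15 were lower beside 29.3%. At 320 uM 10 were higher beside 34.1%, and 15 were lower beside 32.6%. The median log2 change over the members was -0.28 at 10 uM and -0.045 at 320 uM, beside 0.057 and 0.030 over all genes. With library totals alone the members split into 6 higher and 20 lower at 10 uM and into 5 higher and 20 lower at 320 uM. Under that scaling 3137 genes were higher and 4920 lower at 10 uM, in place of 4190 and 3904, and 3027 were higher and 5995 lower at 320 uM, in place of 4548 and 4343. It shifted the median of all genes to -0.13 and -0.25.

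The means in these comparisons share no sums, though their p-values share the estimate of the spread. Of the members lower in adapted cells, 11 were lower at both doses, which is 73.3% of the 15 at either dose: OPTN, MAP1LC3B, ATG3, ATG5, LAMP1, NEU1, ASAH1, PSAP, MCOLN1, ATP6V0D1 and ATP6V1A. Over all genes tested the lower calls at both doses were 56.4% of those at 10 uM and 50.7% of those at 320 uM. With 10 uM adapted cells that had 9p21 UMIs, 2 of the 11 calls at 10 uM ended: ATP6V1A was 0.089 (adjusted p = 0.368) and MCOLN1 -0.12 (adjusted p = 0.678). The log2 differences of NEU1 were -1.43 and -1.24, of PSAP -0.85 and -0.63, of ASAH1 -0.54 and -0.97, and of ATP6V0D1 -0.61 and -0.92. Those of OPTN were -1.70 and -0.52. The MCOLN1 call at 10 uM (log2 -0.55, adjusted p = 0.0285) was lost in 3 of the 10 fits that left out 1 sum: pool 1 or 2 of 10 uM persister cells (adjusted p = 0.128 and 0.0993) and pool 2 of 10 uM adapted cells (adjusted p = 0.113). The MAP1LC3B call at 320 uM (log2 -0.15) was lost without pool 1 of 320 uM persister (adjusted p = 0.0889) or adapted cells (adjusted p = 0.0534).

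Higher in adapted cells at both doses were WIPI1, GUSB, GAA and NPC2, which are 66.7% of the 6 at 10 uM and 40.0% of the 10 at 320 uM, beside 56.4% and 52.0% over all genes. NPC2 differed by 2.06 and 0.96 on the log2 scale, GUSB by 1.70 and 0.57, GAA by 1.25 and 0.40, and WIPI1 by 0.71 and 0.77. ATG12 was called in opposite directions, -0.54 at 10 uM and 0.25 at 320 uM, and the latter was -0.028 with library totals alone. With the pool as a block 3 further members passed at 320 uM: HEXA (log2 0.17, adjusted p = 0.0374), SCARB2 (log2 -0.14, adjusted p = 0.0497) and ATP6AP2 (log2 0.13, adjusted p = 0.00771).

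Whether the adapted to persister difference itself differed between the doses was tested in the same fit. The log2 difference was higher at 320 uM than at 10 uM for 13 members, beside 23.4% of all genes tested, and lower for 11, beside 25.9%. The median over the members was 0.030, beside -0.034 over all genes. The largest value was that of SQSTM1, which was -2.47 at 10 uM and 0.009 at 320 uM, a difference of 2.48 (SE 0.0617, adjusted p = 8.68e-24). With library totals alone the value of SQSTM1 at 320 uM was -0.27 (adjusted p = 1.70e-06). For OPTN the difference was 1.18, for MAP1LC3B 0.72, for NPC2 -1.1, for GUSB -1.13 and for ATP6V1A -0.93. With 10 uM adapted cells without 9p21 UMIs, ATP6V1A was at -0.19 (adjusted p = 0.221). For LAMP2 it was 0.00059 (SE 0.105, adjusted p = 1.00). GLB1 (log2 0.44, adjusted p = 0.0502) passed with the pool as a block alone (adjusted p = 0.0414). With library totals alone 9 members were higher and 12 lower, and over all genes 2707 were higher and 3926 lower in place of 3124 and 3453. DESeq2 gave 6 lower members in place of 11. That count was 7 without pool 2 of 10 uM persister cells and 7 without pool 1 of 320 uM persister cells.

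**Figure D4:**
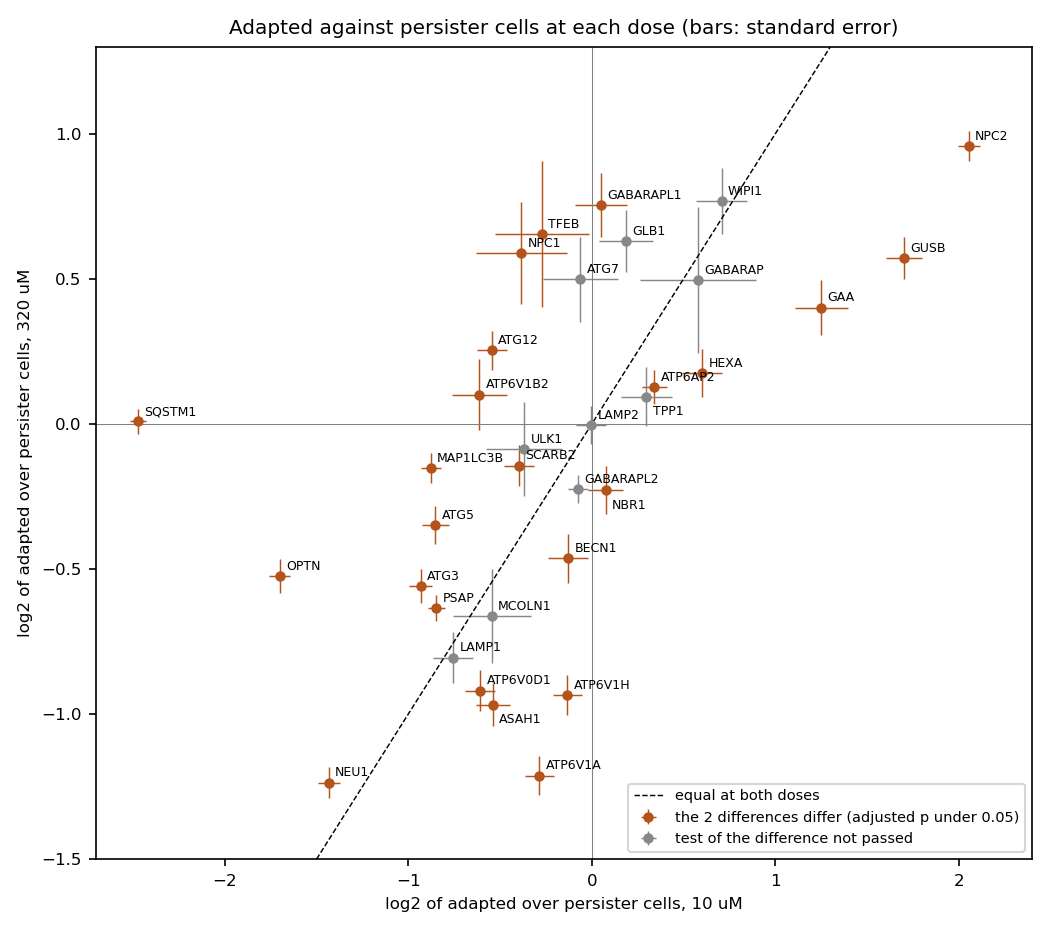
Log2 difference between adapted and persister cells for each member at 10 uM (x axis) and at 320 uM (y axis), with bars of 1 SE, coloured by whether the difference between the doses passed the test. SQSTM1 lies at -2.47 on the x axis and 0.009 on the y axis, while NEU1 is strongly negative on both axes and NPC2 positive on both.

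The doses were also compared within each state. Among persister cells 13 members were higher at 320 uM than at 10 uM, beside 25.3% of all genes tested, and 8 were lower, beside 24.4%. Among adapted cells 15 were higher at 320 uM, beside 33.4%, and 7 were lower, beside 32.4%. The medians over the members were 0.033 and 0.15, beside 0.029 and 0.017 over all genes. With library totals alone the adapted split was 11 higher and 9 lower, and over all genes 3230 higher and 5391 lower in place of 4449 and 4317. The count of 8 lower persister members was 5 without pool 1 of 10 uM persister cells and 5 without pool 2 of 320 uM persister cells.

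The means in the dose comparisons share no sums either. In both comparisons 5 members were higher at 320 uM: GABARAPL2, LAMP2, GAA, PSAP and TPP1. These are 38.5% of the 13 and 33.3% of the 15, beside 46.2% and 35.0% over all genes. LAMP2 was higher by 0.49 among persister and 0.49 among adapted cells, PSAP by 0.41 and 0.63, and GAA by 1.18 and 0.33. Among adapted cells GAA was 0.093 (adjusted p = 0.404) against 10 uM cells with 9p21 UMIs and 0.70 against those without, while LAMP2 was 0.68 and 0.17 (adjusted p = 0.0531 for the latter). TPP1 was higher by 0.58 and 0.38, the latter lost without pool 2 of 320 uM adapted cells (adjusted p = 0.0525). SQSTM1 was lower at 320 uM among persister cells (log2 -1.86, adjusted p = 1.1e-24) and higher among adapted cells (log2 0.62, adjusted p = 2.84e-13), and MAP1LC3B did the same (-0.41 and 0.31). ATP6V1A and ATP6V1H went the other way: ATP6V1A by 0.41 and -0.52, ATP6V1H by 0.30 and -0.51. Against 10 uM adapted cells without 9p21 UMIs the opposite dose direction among adapted cells was not seen for MAP1LC3B (log2 0.018, adjusted p = 0.811) or ATP6V1A (log2 0.21, adjusted p = 0.0580). OPTN was lower at 320 uM in both states (-1.37 and -0.19), and the adapted call was lost without pool 2 of 320 uM adapted cells (adjusted p = 0.0963) or against 10 uM cells with 9p21 UMIs (log2 0.04, adjusted p = 0.607). LAMP1 among adapted cells (log2 0.19, adjusted p = 0.0601) passed with the pool as a block (adjusted p = 0.0483).

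Within 10 uM adapted cells, those with at least 3 UMIs of the 9p21 genes (637 and 601 cells) were set beside those with 0 (764 and 680 cells). The classes differ in depth, with median UMIs of 10747 and 12734 in the former and 6102 and 6937 in the latter, so the class of a cell depends in part on its depth. They also differed in markers. Of the 12 serous epithelial markers 9 were lower and 2 higher in cells without 9p21 UMIs: PAX8 was at 127 and 123 CPM with and 36.8 and 44.0 CPM without, whereas KRT8 was at 599.6 and 600.0 CPM with and 782 and 785 CPM without, and KRT18 at 1534 and 1463 CPM and 1990 and 1882 CPM. The 12 summed to 2480 and 2425 CPM with and to 2838 and 2744 CPM without. The 8 mesenchymal markers summed to 103 and 107 CPM with and to 282 and 271 CPM without, and 7 of them were higher in cells without, with COL3A1 at 30.4 and 37.9 CPM with and 138 and 138 CPM without. Of the members, 14 were higher without overlap of the pools in cells without 9p21 UMIs, beside 34.7% of all genes tested, 12 were lower, beside 35.5%, and 8 overlapped. These counts are near the shares over all genes. The median ratio was 1.04, beside 0.992 over all genes. No test was made between classes of cells from the same pools.

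NPC2 was at 323 and 306 CPM in cells with 9p21 UMIs and 776 and 769 CPM in cells without, and so was high in both classes against 110 and 109 CPM in control. ATP6V1A was at 58.0 and 59.8 CPM in cells with 9p21 UMIs and 26.4 and 28.2 CPM in cells without. SCARB2 was at 40.7 and 34.1 CPM in cells with 9p21 UMIs and 58.1 and 60.2 CPM in cells without. NBR1 was at 50.1 and 48.8 CPM in cells with 9p21 UMIs and 27.4 and 33.5 CPM in cells without, and its level without 9p21 UMIs was near that of control. MCOLN1 was at 10.2 and 6.87 CPM in cells with 9p21 UMIs and 3.15 and 5.26 CPM in cells without. WIPI1 was at 30.7 and 29.8 CPM in cells with 9p21 UMIs and 25 and 24.1 CPM in cells without, far above control in both. SQSTM1 was at 229.6 and 274 CPM in cells with 9p21 UMIs and 257 and 241 CPM in cells without, which overlapped. Against control, 16 members were higher and 5 lower when 10 uM adapted cells with 9p21 UMIs stood for that condition, beside 30.4% and 30.4% of all genes. With those without, 13 were higher and 12 lower, beside 31.7% and 32.9%. The log2 change of NPC2 was 1.56 and 2.85, that of WIPI1 2.87 and 2.57, that of TFEB 1.69 and 1.92, and that of GAA 1.42 and 0.81. Against 10 uM persister cells, SQSTM1 was at -2.46 and -2.48 and NEU1 at -1.34 and -1.73, so both falls were seen with either class.

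**Figure D5:**
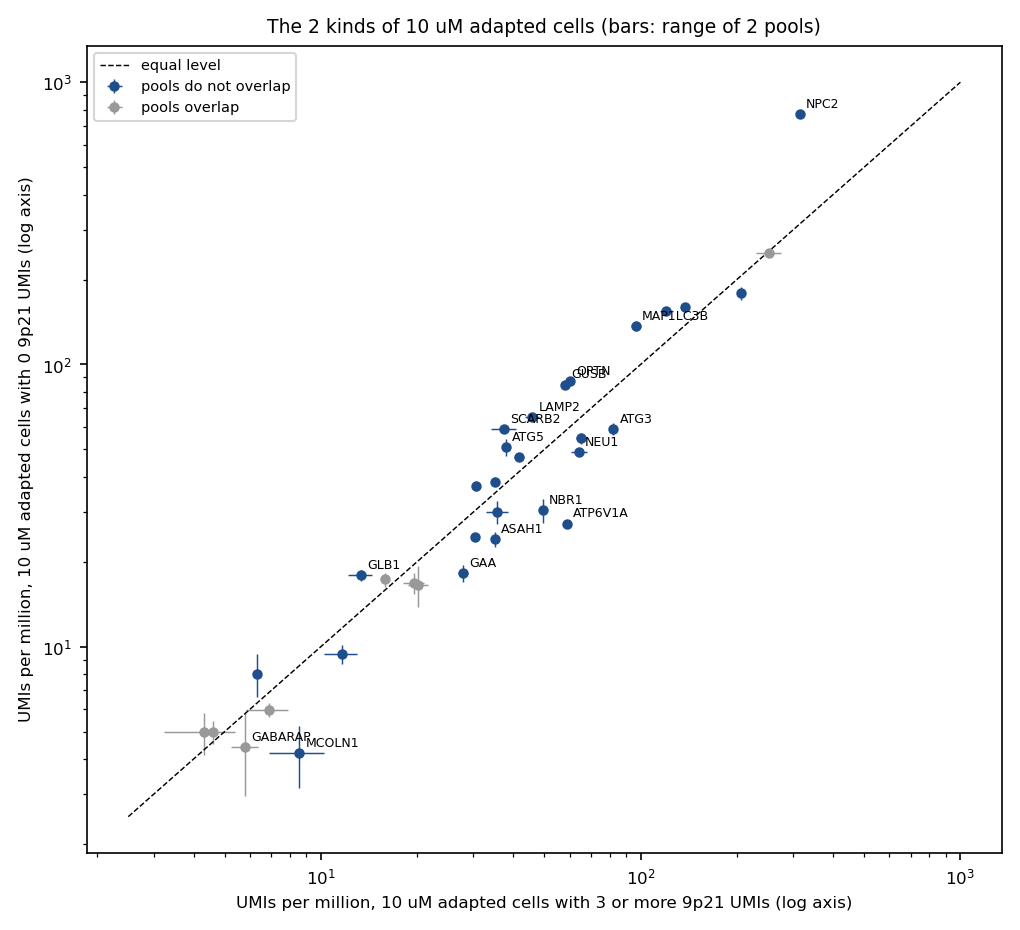
Level of each member in CPM in 10 uM adapted cells with 9p21 UMIs (x axis) and without (y axis), both on log scales; points are means of 2 pools, bars span the pools, blue marks members whose pools do not overlap between the classes, and the dashed line marks equality. NPC2 lies 2.46-fold above the line, and ATP6V1A lies below it at a ratio of 0.464.

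A deposited list names 7762 of the 13800 cells, from 42.3% and 43.5% of control cells to 78.7% and 74.9% of 320 uM persister cells, and how these were chosen is not given in the sources used here. Only 37 of the listed cells have the same UMI total in the list and in the count matrix. In control 22 members were higher and 6 lower in listed than in other cells without overlap of the pools, beside 30.2% and 30.8% of all genes. The counts were 17 and 3 in 10 uM persister cells (29.9% and 21.9% of all genes), 21 and 2 in 320 uM persister cells (32.5% and 31.5%), 24 and 1 in 10 uM adapted cells (34.7% and 27.2%) and 22 and 7 in 320 uM adapted cells (32.6% and 30.1%). The median ratio of listed to other cells was 1.17 to 1.22 over the members and 1.01 to 1.05 over all genes. SQSTM1 was at 1678 and 1614 CPM in listed and 723 and 647 CPM in other 10 uM persister cells, so its level was above control in both. GUSB was lower in listed cells, at 17.4 and 14.0 CPM against 41.7 and 36.2 CPM in 10 uM persister cells. In control it was at 29.7 and 27.9 CPM in listed and 35.8 and 37.0 CPM in other cells. The lower level in 10 uM persister cells was thus seen in listed cells alone. The GUSB rise in 320 uM persister cells was 0.10 with listed cells alone (adjusted p = 0.458).

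Other genes of these pathways were taken from 7 further lists, whose counts are to be read beside the shares of all genes called higher and lower: 27.3% and 29.3% in 10 uM persister, 26.3% and 28.3% in 320 uM persister, 33.7% and 33.4% in 10 uM adapted, and 37.6% and 36.9% in 320 uM adapted cells. Of 13 other selective receptors, 8 were higher and 1 lower in 10 uM persister, 9 higher in 320 uM persister, 6 and 3 in 10 uM adapted, and 10 and 3 in 320 uM adapted cells. The xenophagy receptor CALCOCO2 was at 32.2 and 28.0 CPM in control and 95.8 and 95.5 CPM in 320 uM adapted cells (log2 1.67). TAX1BP1 fell in 10 uM adapted cells (log2 -0.74). The mitophagy receptor BNIP3 was at 82.5 and 82.8 CPM in control, 322 and 290.0 CPM in 10 uM persister and 408 and 387 CPM in 320 uM adapted cells (log2 1.89 and 2.27). BNIP3 and SQSTM1 were both high in 10 uM persister cells, while in 320 uM adapted cells BNIP3 was above its 10 uM persister level and SQSTM1 was at 384 and 396 CPM. Of 28 further genes of the autophagy machinery, 8 were higher and 5 lower in 10 uM persister, 9 and 2 in 320 uM persister, 5 and 4 in 10 uM adapted, and 5 and 9 in 320 uM adapted cells. The ATG8 gene MAP1LC3A rose by 0.86, 1.1 and 0.95 in the last 3 conditions. Other genes of this list fell: ATG13 (log2 -0.97) and UVRAG (log2 -0.54) in 320 uM adapted cells. RB1CC1 was -0.52 in 10 uM persister and 0.41 in 320 uM persister cells. VMP1 was -0.65 in 320 uM persister and 0.35 in 10 uM adapted cells.

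Of 13 cathepsins, the main lysosomal proteases, 8 were higher and 3 lower in 10 uM persister, 5 and 5 in 320 uM persister, 11 and 1 in 10 uM adapted, and 6 and 4 in 320 uM adapted cells. CTSS was at 3.23 and 2.84 CPM in control and 78.7 and 65.4 CPM in 10 uM persister cells (log2 4.56, adjusted p = 2.50e-22 in the edgeR test). CTSS is abundant in myeloid cells: the 6 leukocyte markers summed to 11.6 and 7.69 CPM there against 0.467 to 1.63 CPM elsewhere, with CD14 at 11.3 and 6.97 CPM, PTPRC at 0.258 and 0.481 CPM, and LYZ, CSF1R and CD3E at 0. CTSB was at 53.5 and 56.0 CPM in control and 263 and 303 CPM in 10 uM persister cells, and CTSD at 84.8 and 87.9 CPM and 271 and 235 CPM. CTSD also rose in 320 uM persister (log2 1.16) and 320 uM adapted cells (log2 0.99). LGMN rose by 1.41 in 320 uM persister cells and CTSA by 0.54 in 320 uM adapted cells. CTSC fell by 0.98 in 320 uM persister and by 1.62 in 320 uM adapted cells.

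Of 28 other hydrolases and activators, 10 were higher and 3 lower in 10 uM persister, 18 and 3 in 320 uM persister, 16 and 7 in 10 uM adapted, and 16 and 7 in 320 uM adapted cells. Of 15 other V-ATPase subunits tested, 11 were higher and 1 lower in 10 uM persister, 10 higher in 320 uM persister, 6 and 3 in 10 uM adapted, and 6 and 6 in 320 uM adapted cells. ATP6V0B, in the membrane sector, was at 435 and 428 CPM in control, 921 and 859 CPM in 10 uM persister and 815 and 748 CPM in 320 uM persister cells, but at 222 and 221 CPM and 294 and 286 CPM in adapted cells at 10 and 320 uM, below control. Like ATP6V0D1, it was above control in both persister populations and below it in 320 uM adapted cells.

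Of 21 other lysosomal membrane proteins, 11 were higher and 2 lower in 10 uM persister, 11 and 1 in 320 uM persister, 8 and 2 in 10 uM adapted, and 6 and 5 in 320 uM adapted cells. LITAF, which acts in endosomal sorting, rose in all 4 (log2 1.55, 1.21, 1.16 and 1.52). Of 25 relatives of TFEB and genes of mTORC1 signalling at the lysosome, 14 were higher and 5 lower in 10 uM persister, 15 and 2 in 320 uM persister, 9 and 8 in 10 uM adapted, and 9 and 10 in 320 uM adapted cells. DEPTOR and SESN2, which restrain mTORC1, rose by 3.01 and 2.04 in 320 uM persister cells. RRAGD, a GTPase that brings mTORC1 to the lysosome, rose by 2.47 in 320 uM adapted cells.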

How the data were processed

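Single-cell libraries of 2 hashed pools were made with the 10x 3′ v3.1 kit, per the labels' protocols. The authors deposited 1 table of raw UMI counts per gene and cell, with the condition and pool in each cell's name, and a list of cells with total UMI counts. Cell Ranger 3.1, Seurat and the build GRCh38 are named in the submitters' processing notes. No source used here gives the filters on cells, the treatment of doublets or the use of strand. All 13800 cells were used, and no doublets were called.

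Since cells are not replicates, the UMIs of all cells of 1 condition in 1 pool were added up. The 10 sums were fitted in edgeR 4.0.16 (R 4.3.3, limma 3.58.1) with TMM scaling, filterByExpr, 1 mean for each condition and robust quasi-likelihood tests, with Benjamini-Hochberg adjustment over 13330 genes. Alternatives were DESeq2 1.42.0, library totals alone, no filter, the pool as a block, each sum left out, only the conditions compared, listed cells alone, and, added after seeing the data, 10 uM adapted cells split by UMIs of the 9p21 genes. Pools pair the sums: deviations of sums of the same pool correlated at 0.333 to 0.607 over 2730 genes in all 10 pairs of conditions. On data simulated for 10 uM persister against control (13330 genes), 66 of 100 genes changed by 0.5 on the log2 scale and 95 of 100 changed by 1 were called, with 11 false calls among 13130. The changed genes were drawn from those above a floor on expected UMIs in the smallest sum. All genes had the same dispersion and no pool effect was simulated. These shares may therefore not hold for low members such as TFEB and GABARAP.

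The members and the other gene lists were chosen with earlier results of these data known, so their counts are descriptions. All members are named. From each other list, at most 3 genes per comparison could be named, those with the lowest adjusted p among genes whose sums did not overlap and whose higher condition had a mean of at least 20 CPM. Thinning and counting used Python 3.11.15 with numpy 2.4.6, scipy 1.17.1 and pandas 2.3.3.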

Additional observations from a re-analysis of the deposited data

Results flagged for a closer look

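For 24 members the difference between adapted and persister cells was not the same at 10 uM and at 320 uM, by a test of that difference in the edgeR fit. It was higher at 320 uM for 13 of them, beside 23.4% of all genes tested, and lower for 11, beside 25.9%. Each value is the log2 difference at 320 uM minus that at 10 uM, so that a positive value means that adapted cells stood higher relative to persister cells at 320 uM.

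Among autophagy genes the values were 2.48 for SQSTM1, -0.30 for NBR1, 1.18 for OPTN, 0.72 for MAP1LC3B, 0.71 for GABARAPL1, 0.37 for ATG3, 0.50 for ATG5, 0.80 for ATG12 and -0.33 for BECN1. For TFEB the value was 0.93. OPTN, MAP1LC3B, ATG3 and ATG5 were lower in adapted than in persister cells at both doses, and more so at 10 uM, whereas SQSTM1 was lower at 10 uM and differed by 0.009 at 320 uM, or by -0.27 with library totals alone. Calls for NBR1, BECN1 and TFEB were lost in 9, 7 and 5 of the 10 fits that left out 1 sum, with adjusted p up to 0.218, 0.5 and 0.151.

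Among lysosomal lumen genes the values were 0.20 for NEU1, -0.43 for HEXA, -1.13 for GUSB, -0.85 for GAA, -0.43 for ASAH1, 0.21 for PSAP and -1.1 for NPC2. Among membrane genes they were 0.97 for NPC1 and 0.25 for SCARB2. The negative values of GUSB, GAA and NPC2 go with a larger rise at 10 uM. The NEU1 and SCARB2 calls were lost in 8 and 9 of the 10 fits, those of HEXA in 3 and those of NPC1 in 2.

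Among V-ATPase genes the values were -0.31 for ATP6V0D1, -0.93 for ATP6V1A, 0.71 for ATP6V1B2, -0.80 for ATP6V1H and -0.21 for ATP6AP2. The ATP6AP2 call was lost in 7 of the 10 fits and that of ATP6V0D1 in 2. With 10 uM adapted cells without 9p21 UMIs, ATP6V1A was at -0.19 (adjusted p = 0.221), and with those that had them at -1.29 (adjusted p = 2.97e-11). SQSTM1 was at 2.49 and 2.48 in the same order, and NPC2 at -1.75 and -0.44.

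Other calls of this kind ended in 1 of the classes of 10 uM adapted cells. With cells without 9p21 UMIs the values, each followed by its adjusted p from edgeR, were NBR1 0.13 (0.525), ATG5 0.24 (0.0858), BECN1 -0.19 (0.358), TFEB 0.83 (0.0884), GAA -0.47 (0.0670), ASAH1 -0.04 (0.845) and SCARB2 -0.095 (0.537). With cells that had 9p21 UMIs they were ATG3 0.18 (0.0909), NEU1 0.12 (0.288), HEXA -0.32 (0.0684), PSAP 0.14 (0.0725), ATP6V0D1 -0.24 (0.0890) and ATP6AP2 -0.055 (0.647).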

How the results depend on the processing

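The precision rests on 2 sums a condition and on depth: 4 members lay under 10 CPM in every sum, and 10 uM persister cells had the fewest UMIs. Of 306 changes of members over 9 comparisons, 216 passed, and 44 of these were lost in at least 1 fit that left out a sum, while 0 turned direction. Left out in turn, the sums gave 17 to 22 higher and 2 to 2 lower members for 10 uM persister against control, 24 to 28 and 0 to 0 for 320 uM persister, 13 to 14 and 7 to 9 for 10 uM adapted, and 20 to 23 and 5 to 7 for 320 uM adapted cells. For adapted against persister they gave 6 to 7 and 14 to 15 at 10 uM and 7 to 11 and 13 to 16 at 320 uM, for 320 uM against 10 uM persister 11 to 14 and 5 to 8, for adapted 13 to 15 and 5 to 7, and for the difference between doses 10 to 12 and 7 to 10. Library totals alone gave 1 lower member for 10 uM persister and 10 for 320 uM adapted cells against control, and 5 higher for adapted against persister at 320 uM. Cells with 9p21 UMIs gave 5 lower members for 10 uM adapted cells against control, listed cells gave 4 lower for 320 uM against 10 uM persister, and DESeq2 gave 6 lower for the difference between doses. The pool as a replicate block lost 0 calls and added 8, each given in the report, and changed no other call. Other settings cost more calls. With the sign kept, 31 calls were lost with listed cells alone, 28 with DESeq2, 19 with library totals alone and 6 without the filter. Most of those lost with listed cells are not named at their genes. Changes given for all cells therefore need not hold in listed cells. Library totals alone added 20 calls, listed cells 7 and no filter 4.

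Library totals alone turned GABARAPL2 to -0.19, BECN1 to -0.019 and ASAH1 to -0.21 in 320 uM adapted against control, SQSTM1 to -0.27, ATG12 to -0.028 and ATP6AP2 to -0.15 in adapted against persister at 320 uM, and SCARB2 to -0.15 in 320 uM against 10 uM adapted cells. Listed cells turned NPC2 to -0.17 in 10 uM persister against control and to 0.0085 in 320 uM against 10 uM adapted cells. With 10 uM adapted cells that had 9p21 UMIs, an alternative chosen after seeing the data like its counterpart, ATG3 was 0.17 and ATP6V1A 0.0081 against control, ATP6V1A 0.089 against persister, and OPTN 0.040, GUSB 0.068 and NPC2 0.49 for 320 uM against 10 uM adapted cells. With those without, OPTN was 0.12, MAP1LC3B 0.26 and NEU1 -0.19 against control, NBR1 -0.35 and LAMP2 0.31 against persister, NBR1 0.085, ATG3 0.20, SCARB2 -0.36, ATP6V1A 0.21 and ATP6AP2 -0.16 for 320 uM against 10 uM adapted cells, and NBR1 0.13, LAMP2 -0.31 and SCARB2 -0.095 for the difference between doses. Among the calls that ended with the sign kept, for 320 uM against 10 uM adapted cells NEU1 was 0.088 with 9p21 UMIs. Without them ATG5 was 0.0057 and ATG7 0.39 there, and SCARB2 was -0.046 against persister. The cause of these turns and losses was not tested.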
